A study of Mus musculus with 16 samples.

Results

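Atf4, a transcription factor that switches on the response of cells to a shortage of amino acids, and 9 of its known target genes were followed in mouse embryonic stem cells (mESCs) moved from serum medium to 2i medium. The genes are Atf4, Asns, Chac1, Trib3, Ddit3, Sesn2, Atf3, Slc7a11, Psat1 and Phgdh. They were picked by name, with earlier results of these data known. Every array probe whose RefSeq identifier belongs to one of them was used, which gave 13 probes for these 10 of the 21154 genes named on the array. Of the 10 genes, 9 (12 probes) could be tested, against 13917 genes in all, and the single Slc7a11 probe was not well above background on any array.

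Total RNA was hybridised to 16 one-colour (Cy3) Agilent expression arrays in 6 groups of line and medium. J1 is a wild-type male mESC line, TKO is a J1 derivative without functional Dnmt1, Dnmt3a and Dnmt3b, the DNA methyltransferases, and 3B3l (3B3-3l in the labels) is a Dnmt3a/Dnmt3b knockout derivative of J1 that constitutively expresses exogenous Dnmt3b and Dnmt3l, from a promoter not given in the sources used here. J1 gave 4 serum and 3 2i arrays, TKO 2 serum and 3 2i arrays, and 3B3l 2 of each, and nothing says that replicates came from separate cultures, so p-values measure only the spread between these samples, which may be technical. Serum medium was high-glucose DMEM with 15% FCS, non-essential amino acids, sodium pyruvate and LIF at 500 U/ml. For 2i, cells spent 2 weeks in N2B27 with BSA, monothioglycerol, the MEK inhibitor PD0325901 (1 µM), the GSK3 inhibitor CHIR99021 (3 µM) and LIF at 1000 U/ml. The base medium, serum, amino acid supplement, LIF dose and inhibitors thus changed together and cannot be told apart. The methods place Mitomycin C-inactivated SNLP feeder cells under J1-serum cultures alone, all others being feeder-free on gelatin, so the feeder layer cannot be told apart from line and medium there.

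When amino acids run short, uncharged tRNAs activate the kinase Gcn2 (Eif2ak4), which phosphorylates the translation factor eIF2. Other kinases do the same under endoplasmic reticulum (ER) stress, double-stranded RNA or lack of haem. General translation then falls while Atf4 mRNA is translated better, and Atf4 protein raises genes for amino acid synthesis, amino acid import and tRNA charging, along with genes that dampen or end the response. The arrays measure mRNA only, so Atf4 protein was not seen.

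Atf4 binds, with C/EBP partners, a composite element known as CARE, and the 250 bases upstream of each gene's start (RefSeq, GRCm38.p6) were searched for the letters TGATGNAA on both strands. The letters stood upstream of 4 of the 10 genes, Asns, Chac1, Atf3 and Slc7a11, and upstream of 3.45% of all 32851 promoters in the same window. The palindromic CRE, TGACGTCA, stood upstream of 0 of the 10 genes and 1.55% of all promoters. The 4 windows with a match are shown 5′ to 3′ along the gene, ending at the base before the start for Asns, Chac1 and Slc7a11, with the match in capitals. Chac1 is shown over the whole window because its response differed most between the lines.
Asns, chr6:7693210-7693272, minus strand: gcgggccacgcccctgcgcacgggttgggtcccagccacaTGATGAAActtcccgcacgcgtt
Chac1, chr2:119350992-119351241, plus strand: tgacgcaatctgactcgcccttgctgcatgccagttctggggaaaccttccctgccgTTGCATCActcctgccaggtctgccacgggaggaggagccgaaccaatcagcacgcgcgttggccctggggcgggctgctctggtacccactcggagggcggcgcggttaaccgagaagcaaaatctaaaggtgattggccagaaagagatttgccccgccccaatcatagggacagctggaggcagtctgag
Atf3, chr1:191183396-191183483, minus strand: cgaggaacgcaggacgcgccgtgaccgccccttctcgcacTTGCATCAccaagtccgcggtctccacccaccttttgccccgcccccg
Slc7a11, chr3:50443614-50443719, minus strand: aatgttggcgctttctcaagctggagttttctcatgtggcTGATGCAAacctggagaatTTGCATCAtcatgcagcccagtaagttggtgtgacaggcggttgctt
Slc7a11 held the letters at 2 places, once on each strand, Asns held them on the gene's own strand, and Chac1 and Atf3 on the opposite strand. The first base of the match lay 23 bases upstream of the start in Asns, 110 in Atf3 and 193 in Chac1. No match was found in the windows of Atf4, Trib3, Ddit3, Sesn2, Psat1 and Phgdh, which says only that these letters are not in these windows. The genes with a match did not share one response, since Chac1 rose 8.34-fold in J1 cells while the J1 responses of Asns (1.83-fold) and Atf3 (1.35-fold) were smaller.

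Levels are given as log2 of the background-corrected signal of a gene's brightest tested probe minus the array's 75th percentile, so that 0 is the 75th percentile of that array and 1 unit is a 2-fold difference. A gene is called, and said to rise or fall, when limma gave a Benjamini-Hochberg adjusted p of at most 0.05 over all tested probes and the difference was at least 2-fold. Probes of different genes differ in how well they bind, so levels are compared between arrays for 1 gene and never between genes. In bulk samples fewer cells of a type and less RNA per cell cannot be told apart.

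Before the responses, the cell content of the groups was checked. All 8 mESC markers (Pou5f1, Nanog, Sox2 and others) were well above background on all 16 arrays, with summed signals of 250.1 to 405.8 times the array's 75th percentile. J1-serum stood apart in markers of other cells. The summed signal of 10 fibroblast markers, which feeder cells express, was 17.9 to 25.1 in J1-serum, with 6 or 7 of the 10 well above background and Fap and Lum on no array of that group, against 7.28 to 9.55 in 3B3l-serum, 2.79 to 3.33 in TKO-serum and 1.24 to 2.67 over the 2i groups. The sum of 7 primitive endoderm markers was 11.8 to 13.3 in J1-serum, with all 7 well above background, 1.32 to 1.79 in the other serum groups and 0.448 to 0.984 in the 2i groups. Every comparison with J1-serum below therefore goes with higher sums of these markers, although not each marker was highest there. Twist2, a fibroblast marker, averaged -1.23 in 3B3l-serum and -2.72 in J1-serum (log2 level). Whether the higher signal in J1-serum came from other cells, and its part in the results, was not tested. Comparisons between lines in 2i, and responses within TKO and 3B3l, set no group against J1-serum, whose arrays still enter the shared estimate of the spread. The responses within TKO and 3B3l still go with a marker shift, since both sums were higher in serum. Pdgfrb, a fibroblast marker, went the other way in 3B3l, from -2.10 in serum, not well above background, to -0.29 in 2i. Fibroblast sums were 1.93 to 2.22 in TKO-2i and 2.55 to 2.67 in 3B3l-2i. Endoderm sums were 0.467 to 0.857 in TKO-2i and 0.745 to 0.984 in 3B3l-2i. The part of this shift was not tested.

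**Figure D1:**
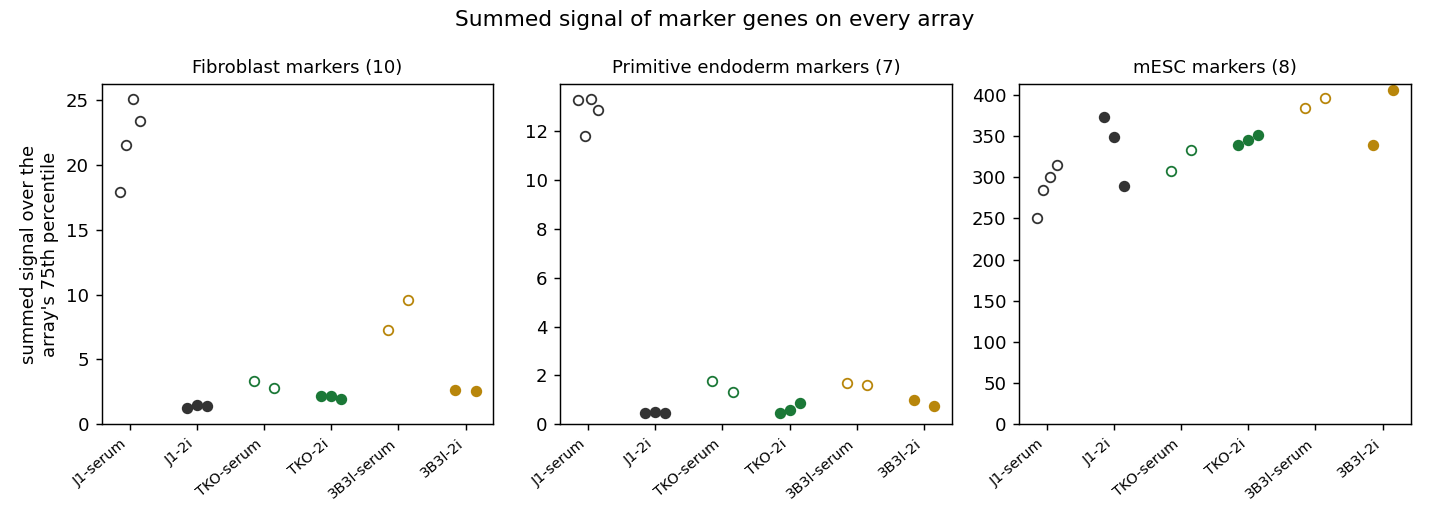
Summed signal of fibroblast, primitive endoderm and mESC marker genes (y axis, multiples of the array's 75th percentile) on each of the 16 arrays, 1 point per array, open for serum and filled for 2i. The 4 J1-serum arrays lie between 17.9 and 25.1 for fibroblast markers and between 11.8 and 13.3 for endoderm markers, above all other arrays.

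The response to 2i differed between the lines for these genes. In J1 cells Chac1 (8.34-fold), Trib3 (4.46-fold) and Atf4 (2.23-fold) rose and none of the 9 tested genes fell. The 3 calls of 9 stand beside 22.6% of all genes called in J1, of which 10.1% rose and 12.6% fell. In TKO cells Trib3 (2.31-fold) and Ddit3 (2.23-fold) rose and none fell, beside 15.8% of all genes called (6.72% up and 9.08% down). In 3B3l cells 0 of the 9 were called by limma, beside 13.6% of all genes (5.62% up and 7.95% down), and 1 of the 9 passed an adjusted p of 0.05 alone. At the adjusted p alone, without the 2-fold limit, 6 of 9 genes were higher in J1-2i and 1 (Ddit3) lower, where 55% of all genes passed (30.1% higher and 25% lower). The same count was 6 higher and 0 lower in TKO-2i, where 38.8% passed (20.8% higher and 17.9% lower). It was 0 higher and 1 (Chac1) lower in 3B3l-2i, where 31.3% passed (15.9% higher and 15.3% lower). The median response of the 9 genes was 0.59 in J1, 0.58 in TKO and -0.01 in 3B3l on the log2 scale, beside 0.05, 0.07 and 0.00 over all genes. The 3B3l counts and median include Asns, whose probe was saturated on both 3B3l-serum arrays. The 6 genes higher in TKO-2i include Atf4 and Psat1, whose second probes did not pass there (adjusted p = 0.151 and 0.343).

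**Figure D2:**
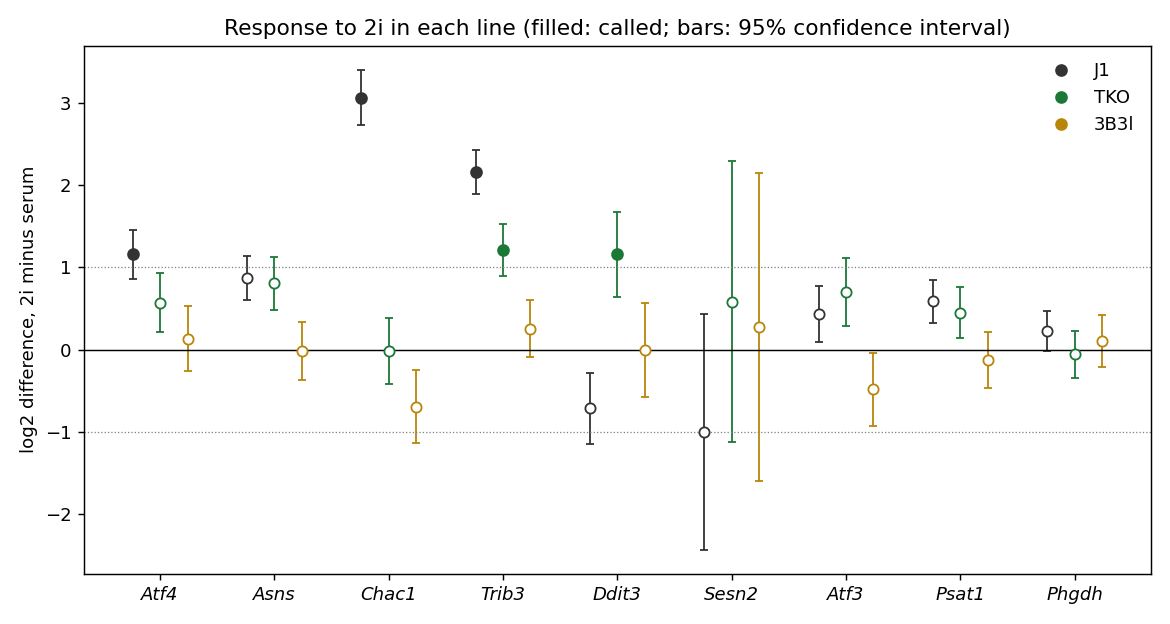
Response to 2i (y axis, log2 level in 2i minus serum) of the 9 tested genes in J1, TKO and 3B3l cells; bars are 95% confidence intervals from limma, filled points are called and dotted lines mark 2-fold. Chac1 reaches 3.06 in J1 but -0.02 in TKO and -0.69 in 3B3l, and Ddit3 is called upward in TKO only.

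By its brighter probe, Atf4 mRNA was higher in 2i than in serum in J1 and TKO cells, and was already high in serum in 3B3l cells. Its levels were 4.72, 4.30, 4.47 and 4.39 in J1-serum and 5.73, 5.67 and 5.48 in J1-2i, with no overlap. The response was 1.16 ± 0.14 (SE; adjusted p = 1.64e-05). TKO cells read 4.54 and 5.08 in serum, then 5.35, 5.31 and 5.48 in 2i, a smaller response of 0.57 ± 0.17 (adjusted p = 0.0188). In 3B3l cells Atf4 read 5.80 and 5.71 in serum and stood at 5.76 and 6.01 in 2i, so the groups overlapped. The 3B3l response was 0.13, with a 95% interval from -0.26 to 0.53 that does not reach 2-fold. Both 3B3l groups and J1-2i formed the top of the order, J1-serum and TKO-serum overlapped at the bottom, and TKO-2i lay between.

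The 3B3l response of Atf4 was smaller than that of J1 by -1.02 ± 0.23 (log2, adjusted p = 0.00514). For this brighter probe the call rests on the limit of 2-fold, since the authors' table gave a difference of -0.86 and quantile normalization one of -0.90. The call was also lost without J1-serum replicate 2 (-0.97), J1-serum replicate 4 (-0.996), J1-2i replicate 1 (-0.97), 3B3l-serum replicate 1 (-0.98) or 3B3l-2i replicate 1 (-0.90). The TKO response differed from that of J1 by -0.59 (95% interval -1.06 to -0.12, adjusted p = 0.0658), which did not pass. A second Atf4 probe gave a larger response in J1 (1.53) and responses of 0.46 in TKO and 0.06 in 3B3l. The probes disagreed on TKO, where the second did not pass (adjusted p = 0.151) and its groups overlapped. With the second probe the TKO response was called smaller than that of J1 (-1.07, adjusted p = 0.0178). The 3B3l response was also called smaller with it (-1.47, adjusted p = 0.00369). The brighter probe was saturated on 1 J1-2i array and 1 3B3l-2i array, while the second was saturated on none, so the brighter probe may read too low there.

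Asns, the enzyme that makes asparagine and a classical Atf4 target, was higher in 2i by less than 2-fold in J1 and TKO. Its levels were 4.55, 4.72, 4.87 and 4.97 in J1-serum and 5.86, 5.64 and 5.43 in J1-2i. TKO cells read 4.87 and 4.98 in serum, then 5.63, 5.79 and 5.77 in 2i. The groups did not overlap in either line, with responses of 0.87 ± 0.12 (adjusted p = 7.41e-05) and 0.80 ± 0.15 (adjusted p = 0.00102). The J1 value sits at the 2-fold limit and was called (1.001) when arrays were scaled by their median. The response of TKO cells differed from that of J1 by -0.07 (95% interval -0.49 to 0.35). The probe was saturated on J1-2i replicate 3, so J1-2i may read too low, which limits the J1 response and this difference. In 3B3l cells Asns read 5.96 and 5.88 in serum and 5.78 and 6.02 in 2i, but the probe was saturated on both serum arrays and 1 of 2 2i arrays, so a change in 3B3l could not be measured.

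Psat1 and Phgdh, enzymes of serine synthesis, stayed under 2-fold in all 3 responses. Psat1 read 5.08, 4.63, 4.72 and 4.74 in J1-serum and 5.46, 5.47 and 5.20 in J1-2i, a response of 0.59 ± 0.12 (adjusted p = 0.00131). Its TKO response was 0.45 (adjusted p = 0.0305) and its 3B3l response -0.13 (adjusted p = 0.675). A second Psat1 probe gave 0.89 (adjusted p = 0.00152), 0.30 and 0.30. The probes thus differed in size in J1, where both passed the adjusted p, and disagreed on TKO, where only the first passed. Phgdh, which carries out the first step of that pathway, ranged over 0.77 between the 6 group means. Its responses were 0.23, -0.06 and 0.10, and all 3 intervals lay within -0.35 to 0.47. The second Phgdh probe gave 0.21, -0.08 and -0.25.

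Chac1, which degrades glutathione and is induced through Atf4, showed the widest contrast between lines. Its levels were 1.43, 1.78, 1.50 and 1.41 in J1-serum and 4.64, 4.54 and 4.58 in J1-2i, with no overlap. In TKO cells it read 2.96 and 3.37 in serum and 3.33, 3.19 and 2.91 in 2i, so the 2 media overlapped. In 3B3l cells it read 3.66 and 3.63 in serum and 2.66 and 3.24 in 2i. The response was thus 3.06 ± 0.16 in J1 (adjusted p = 6.14e-09), -0.02 ± 0.19 in TKO (adjusted p = 0.956) and -0.69 ± 0.20 in 3B3l (adjusted p = 0.0246). The TKO response was smaller than that of J1 by -3.08 ± 0.24 and the 3B3l response by -3.75 ± 0.26 (adjusted p = 2.06e-06 and 5.28e-07). The TKO and 3B3l responses did not pass the test against each other (-0.68, 95% interval -1.27 to -0.08, adjusted p = 0.14). J1 cells held both ends of the order: J1-2i was above and J1-serum below every array of the other lines.

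Slc7a11, the cystine importer that feeds glutathione synthesis, read 38.7 to 66.2 signal units on the 16 arrays and was not well above background on any of them, so no change could be measured.

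Trib3, a pseudokinase that restrains Atf4 and Akt, rose in J1 and TKO. It read 1.71, 1.75, 1.86 and 1.77 in J1-serum and 3.99, 3.97 and 3.84 in J1-2i. In TKO cells it read 1.89 and 2.18 in serum and 3.36, 3.19 and 3.19 in 2i. In 3B3l cells it read 2.67 and 3.17 in serum and 3.07 and 3.27 in 2i, already above every serum array of the other lines and with the media overlapping. The responses were ordered by line, from 2.16 ± 0.12 in J1 (adjusted p = 1.57e-08) over 1.21 ± 0.15 in TKO (adjusted p = 3.19e-05) to 0.25 ± 0.16 in 3B3l (adjusted p = 0.316). The difference between 3B3l and J1 was called (-1.91 ± 0.20, adjusted p = 1.91e-05). The TKO response differed from that of J1 by -0.95 ± 0.19 (adjusted p = 0.00271), just under 2-fold, and passed that limit with array median scaling (-1.06), quantile normalization (-1.03), normexp (-1.003) and in the authors' table (-1.02), and without TKO-serum replicate 1 (-1.09) or TKO-2i replicate 1 (-1.003). The 3B3l and TKO responses differed by -0.96 ± 0.22 (adjusted p = 0.0102), also under 2-fold.

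Ddit3 (Chop), a transcription factor that acts beside Atf4 in prolonged stress, was lower in J1-2i and higher in TKO-2i than in the serum of the same line. It read 3.10, 2.86, 3.02 and 3.04 in J1-serum and 2.23, 2.31 and 2.33 in J1-2i, a response of -0.71 ± 0.20 (adjusted p = 0.0098) that stayed under 2-fold. In TKO cells it read -0.20 and 0.40 in serum and 1.40, 1.09 and 1.28 in 2i, a response of 1.16 ± 0.24 (adjusted p = 0.00222). The TKO call was lost without TKO-serum replicate 1, where the response was 0.85. In 3B3l cells it read 0.46 and 0.14 in serum and -0.17 and 0.76 in 2i, with a response of -0.01 and an interval from -0.57 to 0.56. The TKO and J1 responses differed by 1.87 ± 0.31 (adjusted p = 0.000736). Every J1 array, in either medium, lay above every TKO and 3B3l array.

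Atf3, an early stress transcription factor of the same family, responded by less than 2-fold in every line. Its levels were -0.42, -0.56, -0.51 and -0.38 in J1-serum and -0.08, -0.08 and 0.04 in J1-2i, a response of 0.43 ± 0.16 (adjusted p = 0.039). In TKO cells it read -1.75 and -1.64 in serum and -0.56, -1.13 and -1.30 in 2i (0.70 ± 0.19, adjusted p = 0.012). In 3B3l cells it read -0.63 and -0.28 in serum and -1.08 and -0.80 in 2i (-0.48 ± 0.21, adjusted p = 0.115). The 3B3l and TKO responses, which run in opposite directions, differed by -1.18 ± 0.28 (adjusted p = 0.0133).

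Sesn2, which lowers mTORC1 activity and acts as a leucine sensor, varied within groups by more than any other of the 9 genes. It read 2.31, 5.09, 4.89 and 2.54 in J1-serum and 3.44, 2.50 and 2.18 in J1-2i. It read 3.97 and 2.55 in TKO-serum and 3.84, 4.32 and 3.37 in TKO-2i. It read 2.59 and 2.57 in 3B3l-serum and 2.67 and 3.04 in 3B3l-2i. Its within-group SD was 0.95, larger than that of 97.6% of 26238 probes with a value on all arrays, where the median was 0.20. The other 8 genes had SDs of 0.13 to 0.27. The Sesn2 responses of -1.001, 0.58 and 0.27 all had intervals that crossed 0, and the adjusted p was 0.24 or more, so no direction was detectable.

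**Figure D3:**
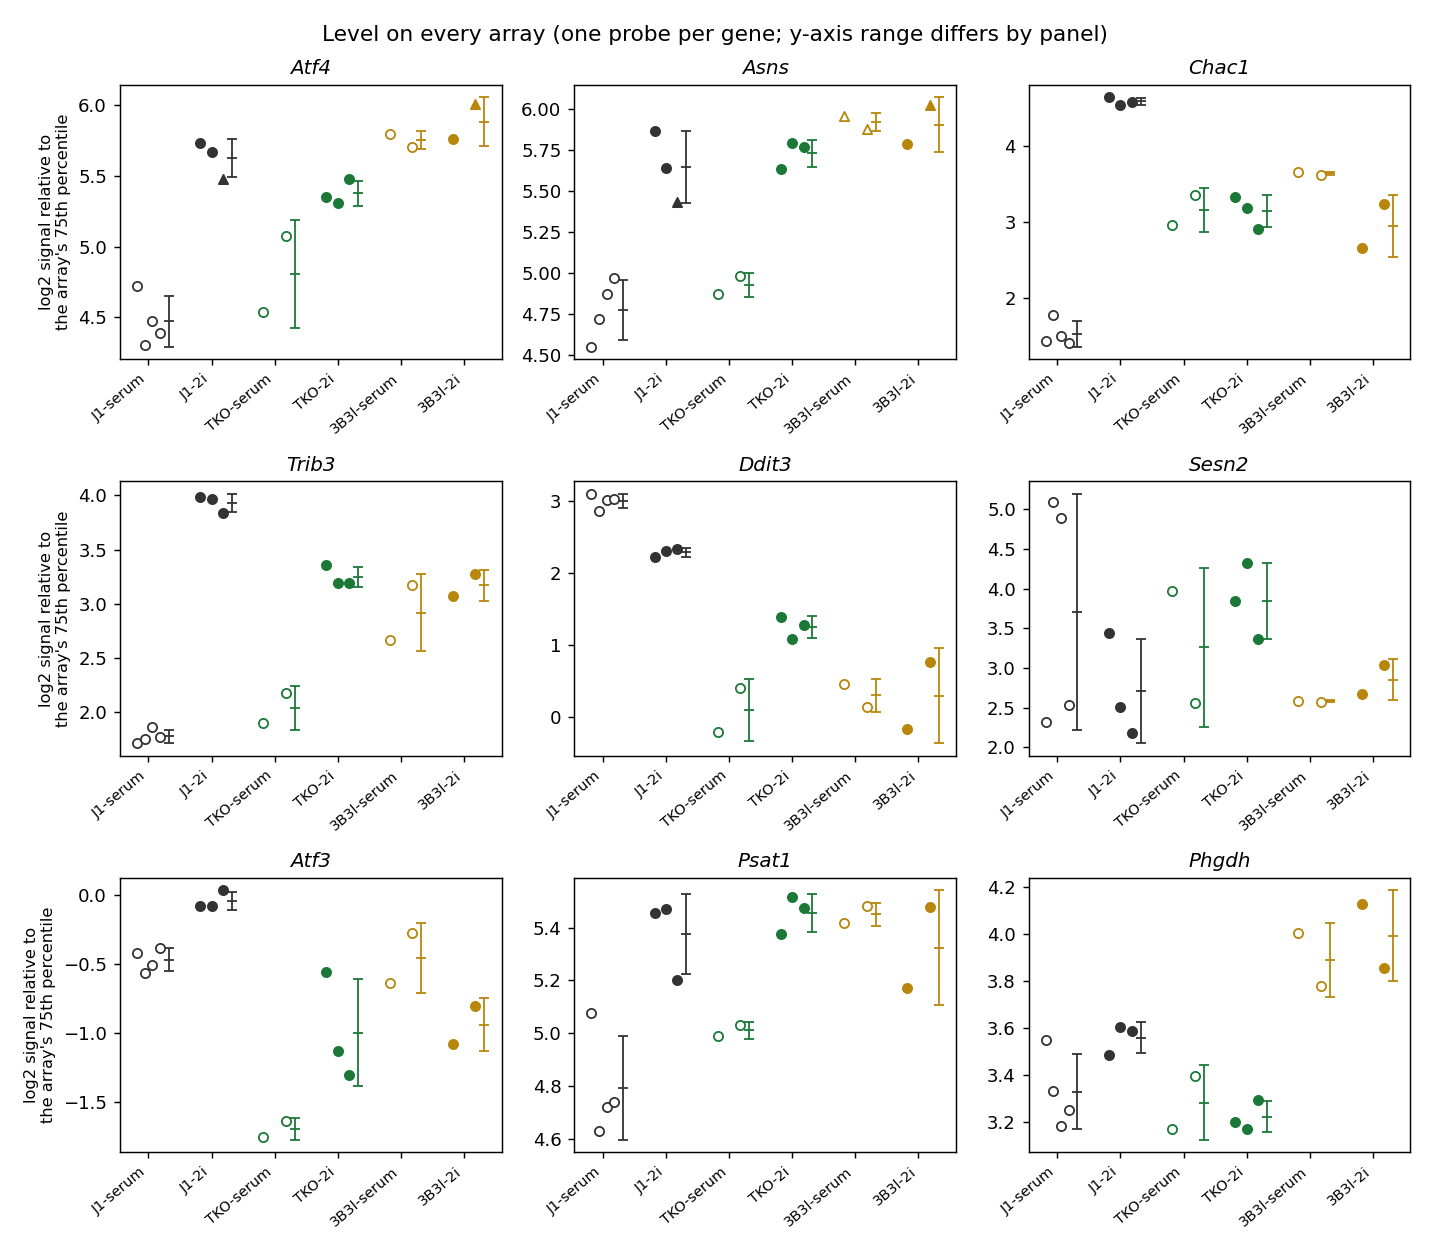
Level of the 9 tested genes on each array (y axis, log2 signal relative to the array's 75th percentile, with its own range in each panel), open points for serum, filled for 2i and triangles for a saturated probe; the bar beside each group is its mean and SD. Chac1 separates J1-serum (1.41 to 1.78) from J1-2i (4.54 to 4.64), Ddit3 separates J1 from both other lines, and Sesn2 spreads from 2.31 to 5.09 within J1-serum.

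Across the 3 tests of one response against another, 2 of the 9 genes were called for TKO against J1 (Chac1 smaller, Ddit3 larger), beside 15.3% of all genes (7.76% larger and 7.51% smaller). For 3B3l against J1, 3 were called, all smaller in 3B3l (Atf4, Chac1, Trib3), beside 17.2% (8.63% larger and 8.59% smaller). At the adjusted p alone 6 of the 9 passed, where 31.9% of all genes did. Asns is among the 6, although its saturated probe could not measure a change in 3B3l. For 3B3l against TKO, 2 were called, both smaller in 3B3l (Ddit3, Atf3), beside 9.47% (4.68% larger and 4.79% smaller), and at the adjusted p alone 4 passed, where 15.7% of all genes did. Asns, with the same limit, is among these 4 too. The Ddit3 call in the last test (-1.16, adjusted p = 0.0471) was lost when any of 14 of the 16 arrays was left out (all but TKO-serum replicate 2 and 3B3l-2i replicate 2), with differences of -0.70 to -1.32, and that of Atf3 was lost without TKO-2i replicate 1, 3B3l-serum replicate 2 or 3B3l-2i replicate 1 (-0.96, -1.003 and -1.04). The J1 and 3B3l arrays lie on different slides except for J1-serum replicate 1, so the difference between these responses cannot be had within a slide. On slide 1 alone, which holds J1 and TKO arrays, Chac1 differed by -3.27 and Ddit3 by 1.83 between the TKO and J1 responses (adjusted p = 0.000721 and 0.00656).

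The lines already differed in serum. Against J1-serum, TKO-serum was higher in Chac1 (1.63 ± 0.18, 3.10-fold, adjusted p = 1.11e-05) and lower in Ddit3 (-2.90 ± 0.23, 7.48-fold, adjusted p = 6.92e-07) and Atf3 (-1.23 ± 0.18, 2.34-fold, adjusted p = 0.000131). These 3 calls of 9 stand beside 16.5% of all genes (7.76% higher and 8.74% lower). Atf4 (0.34), Asns (0.15), Trib3 (0.26), Psat1 (0.22) and Phgdh (-0.05) did not pass the adjusted p. The second Atf4 probe did pass it (0.60, adjusted p = 0.0424), under 2-fold.

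In 3B3l-serum, 4 genes were higher than in J1-serum and 1 was lower, beside 19.3% of all genes called (9.86% higher and 9.43% lower) and a median of 0.13 over all genes. Chac1 was 4.33-fold higher (2.11 ± 0.18, adjusted p = 1.04e-06), Atf4 2.43-fold (1.28 ± 0.16, adjusted p = 2.74e-05) and Trib3 2.21-fold (1.14 ± 0.14, adjusted p = 2.37e-05). Asns was at least 2.21-fold higher, a bound because its probe was saturated on both 3B3l-serum arrays (mean 5.92 against 4.78 in J1-serum, adjusted p = 2.79e-05). Ddit3 was 6.50-fold lower (-2.70 ± 0.23, adjusted p = 1.08e-06). The calls of Atf4, Asns and Trib3 were lost under quantile normalization, where their differences were 0.98, 0.90 and 0.97, and in the authors' table (0.94, 0.87 and 0.96). That of Trib3 was also lost without 3B3l-serum replicate 2 (0.89). The second Atf4 probe, saturated on no array, gave 1.61 (adjusted p = 5.39e-05) and was not put through these alternatives. J1-serum replicate 1 shares its slide with the 3B3l arrays, and no other J1 array does. Within that slide the differences were 1.03 for Atf4, 1.37 for Asns, 2.21 for Chac1, 1.21 for Trib3 and -2.80 for Ddit3. With 1 J1 array there, these values do not settle the calls lost above.

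In 2i the order of the lines for Chac1 turned round. TKO-2i was lower than J1-2i in Chac1 (-1.44 ± 0.17, 2.72-fold, adjusted p = 5.12e-05) and in Ddit3 (-1.03 ± 0.21, 2.05-fold, adjusted p = 0.00383), and these were the only 2 calls of 9, beside 7.35% of all genes (3.8% higher and 3.55% lower), and at the adjusted p alone 4 passed, where 26.4% of all genes did. The Ddit3 call was lost without TKO-2i replicate 2 (-0.95). In 3B3l-2i, Chac1 was 3.12-fold lower (-1.64 ± 0.19, adjusted p = 2.86e-05) and Ddit3 3.98-fold lower (-1.99 ± 0.24, adjusted p = 4.4e-05) than in J1-2i, again 2 calls of 9, beside 14.4% (7.82% higher and 6.56% lower), and at the adjusted p alone 5 passed, where 43.7% did. Trib3 (-0.69 and -0.76) and Atf3 (-0.96 and -0.90) were lower in both lines at the adjusted p, each by less than 2-fold. In TKO-2i Atf3 passed 2-fold on slide 1 alone (-1.19), with array median scaling (-1.04) and without TKO-2i replicate 1 (-1.18). In 3B3l-2i Atf3 passed without 3B3l-2i replicate 2 (-1.04), and Trib3 with quantile normalization (-1.0005). The J1-2i differences of Atf4, Asns and Psat1 were -0.25 to 0.26 over both lines and did not pass. The Atf4 and Asns probes used here were each saturated on 1 J1-2i array and 1 3B3l-2i array, which limits these values. Phgdh was 0.43 higher in 3B3l-2i (adjusted p = 0.0214), but its second probe gave -0.12. The 3B3l-2i arrays lay on slide 3 (scan day 2) and the J1-2i arrays on slides 1 and 2 (scan day 1). Between these groups the line cannot be told apart from slide and scan day. These 2i comparisons set no group against J1-serum, whose arrays still enter the shared estimate of the spread. Marker sums differed here too. Fibroblast sums were 1.24 to 1.49 in J1-2i, 1.93 to 2.22 in TKO-2i and 2.55 to 2.67 in 3B3l-2i, without overlap. Of 7 tested fibroblast markers, 2 were called higher and 1 lower in TKO-2i than in J1-2i. In 3B3l-2i 3 were called higher and 1 lower, and the lower marker was Dcn in both lines. The part of these markers in the Chac1 and Ddit3 differences was not tested.

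**Figure D4:**
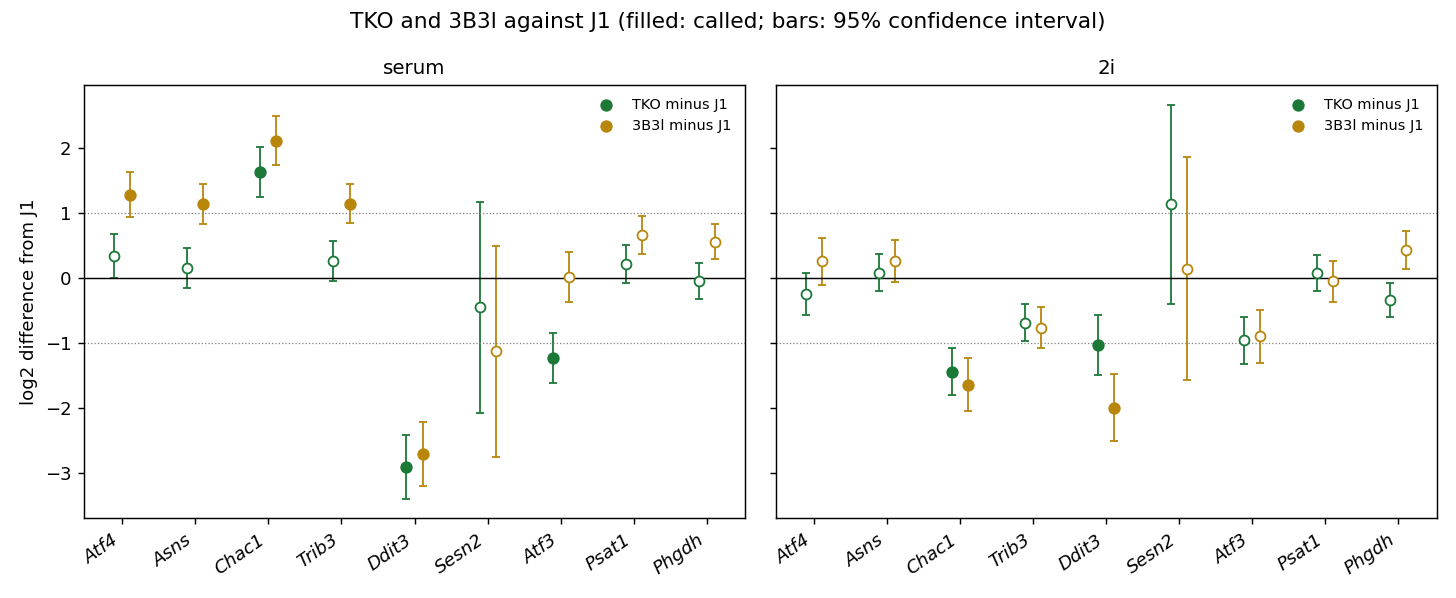
Difference of TKO and 3B3l from J1 (y axis, log2) for the 9 tested genes in serum and in 2i; bars are 95% confidence intervals from limma, filled points are called and dotted lines mark 2-fold. Chac1 lies above J1 in serum (1.63 and 2.11) and below it in 2i (-1.44 and -1.64), while Ddit3 lies below J1 in both media.

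The wider set of pathway genes was then read from 8 supporting lists, also chosen with earlier results of these data known. Their counts are to be read against all genes, of which 10.1% rose and 12.6% fell in J1, 6.72% and 9.08% in TKO, and 5.62% and 7.95% in 3B3l. Of 12 tested genes of serine, proline and one-carbon metabolism, 5 rose in J1, where 10.1% of all genes did, and 0 fell, and the median response was 0.96 beside 0.05 over all genes. Cth, which makes cysteine from cystathionine, rose by 2.24 ± 0.16 (adjusted p = 1.37e-07), and Gpt2 (1.62), Aldh18a1 (1.54) and Mthfd2 (1.02), a mitochondrial folate enzyme, rose with it. Aldh1l2, another mitochondrial folate enzyme and also among the 5, was at least 1.60-fold higher, a bound below 2-fold. It is a bound since Aldh1l2 was not well above background on any J1-serum array (means -1.90 and -4.73, adjusted p = 1.17e-07). Only in J1-2i was it well above background, so it was tested through the group where it was high and its count is no support. The same list had 0 calls in TKO (median 0.10) and 0 in 3B3l (median 0.19) by limma, with 3 and 2 genes passing the adjusted p alone. Tested against J1, 6 of its 12 genes responded less in TKO and 5 less in 3B3l, where 7.51% and 8.59% of all genes did. These 12 again include Aldh1l2, tested only through J1-2i where it was high, so its part in these counts is no support.

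Of 10 amino acid transporters, 5 rose in J1, where 10.1% of all genes did, and 0 fell, with a median of 0.97. Slc7a3, an importer of arginine and lysine, rose by 2.24 ± 0.14 (adjusted p = 3.22e-08), and Slc7a5, which carries leucine, by 1.74 ± 0.22 (adjusted p = 2.68e-05). Slc7a1 (1.41), Slc1a5 (1.34) and Slc6a9 (1.24) were the others. In TKO 0 rose and 2 fell, where 9.08% of all genes fell, namely Slc43a1 (-1.90 ± 0.44, adjusted p = 0.00495) and Slc38a2, a carrier of neutral amino acids (-1.04 ± 0.17, adjusted p = 0.000479). In 3B3l 0 rose and 2 fell, where 7.95% of all genes fell, namely Slc38a2 (-1.55 ± 0.19) and Slc38a1 (-1.03 ± 0.13, adjusted p = 5.58e-05 and 5.41e-05). The mean level of Slc7a3 was 2.23 in J1-serum and 4.48 in J1-2i. It was 4.35 in serum and 4.30 in 2i in TKO cells, and 4.79 and 4.14 in 3B3l cells, so J1-serum alone was low.

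Of 19 tRNA synthetases, which charge tRNAs with amino acids, 3 rose in J1 (Yars by 1.90 ± 0.22, Nars by 1.54 ± 0.12 and Cars by 1.08), not far above the 10.1% of all genes that did. At the adjusted p alone 13 were higher and 0 lower in J1, where 30.1% and 25% of all genes passed, and the median was 0.62. Yars was well above background on 1 of the 4 J1-serum arrays. In TKO and in 3B3l 0 were called by limma. At the adjusted p alone 5 were higher and 1 lower in TKO, beside 20.8% and 17.9% of all genes, and 1 was higher and 3 lower in 3B3l, beside 15.9% and 15.3%.

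Other known Atf4 targets were mixed. In J1 6 of 13 rose and 1 fell, beside 10.1% and 12.6% of all genes. Atf5, an Atf4 relative, rose by 2.62 ± 0.09 (adjusted p = 1.5e-10), Stc2, a secreted stress protein, by 2.46 ± 0.10 (adjusted p = 6.38e-10) and Nupr1, a stress-induced chromatin protein, by 2.11. Nupr1 was the gene of this list that rose in all 3 lines, by 2.46 ± 0.15 in TKO (adjusted p = 9.18e-08) and 1.98 ± 0.17 in 3B3l (adjusted p = 1.94e-06). In TKO 3 rose and 1 fell, beside 6.72% and 9.08%, and Gdf15, a secreted stress hormone, rose by 1.73 ± 0.17 (adjusted p = 4.22e-06). In 3B3l 1 rose and 3 fell, beside 5.62% and 7.95%, of which Cebpb, a partner of Atf4 on DNA, fell (-1.71 ± 0.16, adjusted p = 4.89e-06). Bbc3 (Puma), which promotes cell death, fell in all 3 lines (-1.36, -1.002 and -1.39).

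Upstream genes and neighbouring stress pathways were read in the same way. Among 9 eIF2 kinases and regulators, Eif2ak2, the kinase of double-stranded RNA, rose in J1 (1.78 ± 0.14, adjusted p = 2.75e-07) and 3B3l (1.22 ± 0.18, adjusted p = 0.000231), and was the one call in each, with 0 calls in TKO. Eif2ak4, the amino acid sensor, had responses of 0.60, 0.96 and 0.70 in J1, TKO and 3B3l, under 2-fold. Of 12 ER stress genes 1 rose in J1 (Herpud1, 1.28 ± 0.17) and 1 fell (Calr, -1.08 ± 0.24), and 0 were called in TKO or 3B3l. Hspa5 (BiP), the marker chaperone of ER stress, had responses of -0.47, -0.15 and -0.24. Of 9 Nrf2 targets, which respond to oxidative stress, Nqo1 (1.96 ± 0.09), Gsr (1.1045 ± 0.12) and Srxn1 (1.101) rose in J1, Hmox1 fell in TKO (-1.02 ± 0.13), and in 3B3l Nqo1 rose (1.04 ± 0.12) and Hmox1 fell (-1.02 ± 0.15).

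Of 8 p53 targets, checked because p53 also drives Sesn2 and can raise stress genes, 0 rose and 2 fell in J1 (Btg2, -1.27 ± 0.10, and Eda2r). In TKO Cdkn1a, the p21 cell cycle inhibitor, rose by 1.57 ± 0.13 and Eda2r fell. In 3B3l Cdkn1a (1.61 ± 0.14) and Sesn1 (1.40 ± 0.17) rose and Eda2r passed the limits, but it was not well above background in either 3B3l group. Moving to 2i lowered Eda2r at least 1.26-fold in J1 and at least 1.67-fold in TKO, and in both 2i groups it was not well above background on any array. Only in TKO-serum was it well above background on every array, so it was tested through that group alone. Cdkn1a responded in TKO and 3B3l but by 0.51 in J1, under 2-fold.

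**Figure D5:**
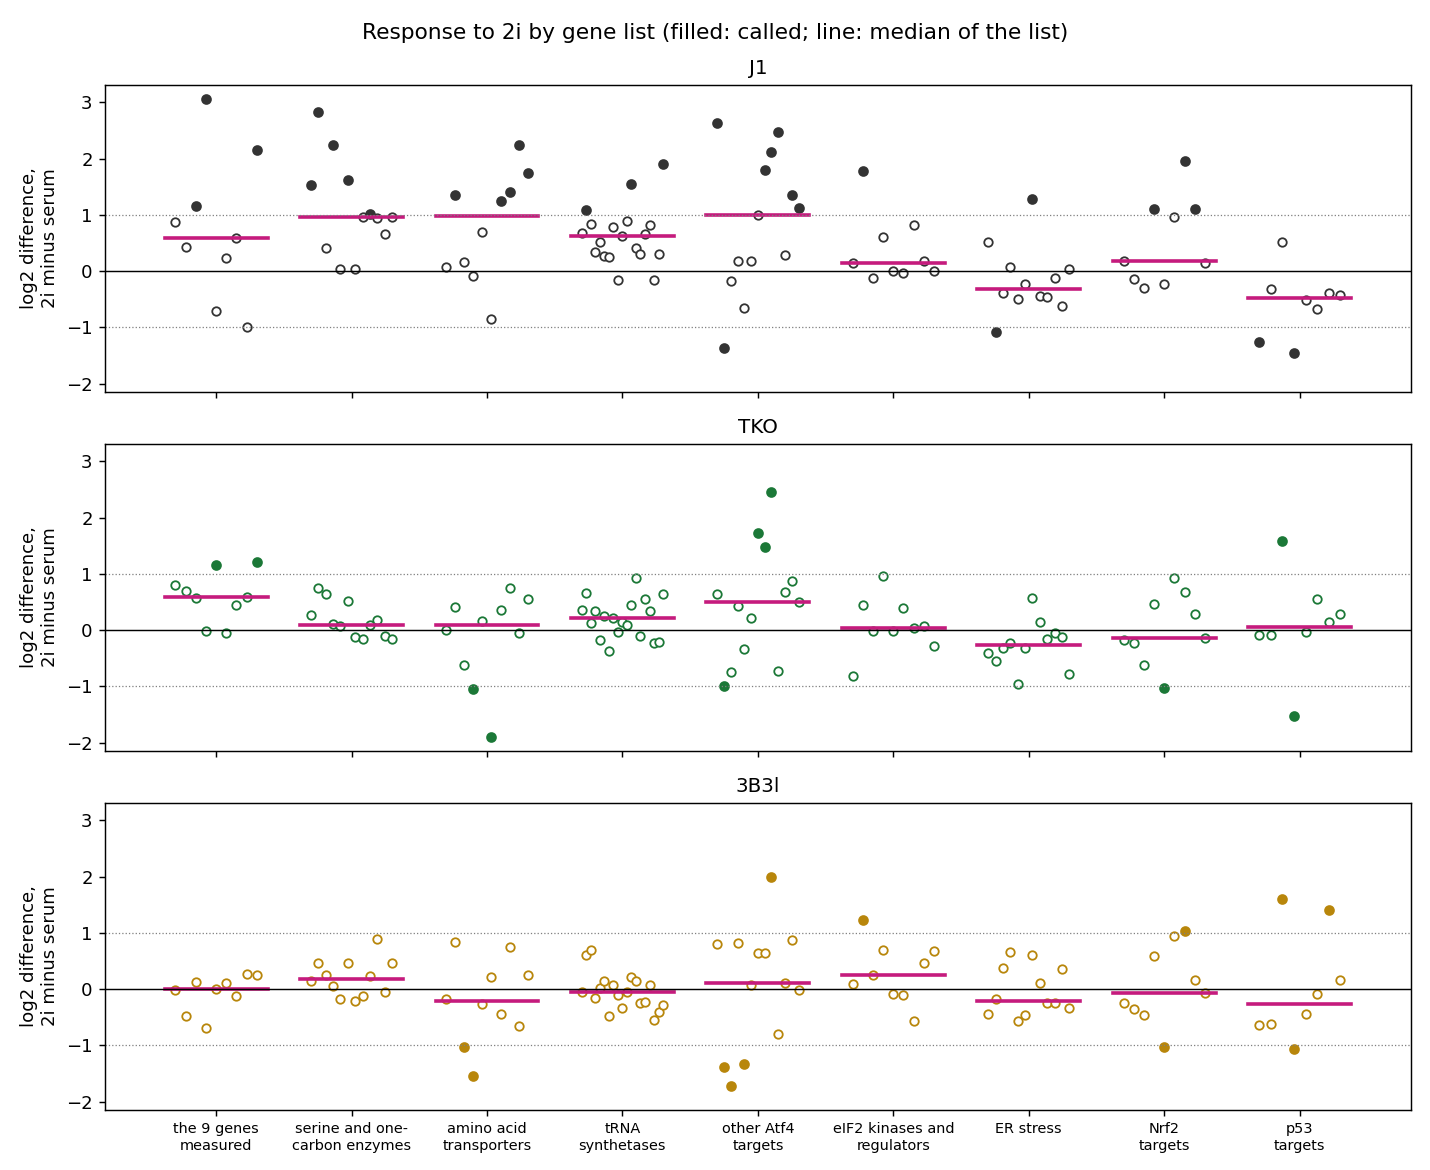
Response to 2i (y axis, log2 level in 2i minus serum) of each tested gene in the 9 lists, 1 panel per line and 1 point per gene, filled when called; the thick line is the list's median. In J1 the serine and one-carbon list (median 0.96), the transporters (0.97) and the other Atf4 targets (0.99) lie mostly above 0, while in 3B3l all medians lie between -0.26 and 0.26.

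The downstream lists were also compared between lines in serum. In 3B3l-serum 4 of 12 serine and one-carbon genes, 4 of 10 transporters and 3 of 19 synthetases were higher than in J1-serum by at least 2-fold, where 9.86% of all genes were, and 0 of these were lower, with list medians of 0.73, 0.85 and 0.81 beside 0.13 over all genes. The 4 serine and one-carbon genes were Cth (2.43), Aldh18a1 (1.33), Shmt2 (1.03) and Aldh1l2, which was not well above background in either group. In TKO-serum 2, 2 and 0 were higher, where 7.76% of all genes were, and 0 lower (medians 0.54, 0.45 and 0.40), again counting Aldh1l2, which was not well above background there. The 13 other Atf4 targets had medians below 0 in serum, with 3 higher and 4 lower in 3B3l (median -0.44) and 2 higher and 3 lower in TKO (median -0.21), beside 9.43% and 8.74% of all genes lower. In 2i the medians against J1-2i were -0.34, -0.28 and -0.11 in TKO and 0.11, -0.32 and -0.02 in 3B3l. Responses in J1 and serum differences from J1 share the J1-serum arrays, so they are not independent of each other or of the feeder and endoderm markers of those arrays.

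Finally, the pattern of Asns over the 6 groups was set against that of 10142 genes well above background on all 16 arrays. By Pearson correlation over the 6 group means, the most similar genes outside the set were Sik3 (0.996), Myd88 (0.993), Ubr4 (0.990), Rybp (0.989) and Adnp (0.988). Atf4 came 46th with 0.971, Psat1 had 0.946, Trib3 0.815, Phgdh 0.678 and Chac1 0.599. Atf3 had 0.297, Ddit3 -0.41 and Sesn2, whose arrays spread widely within groups, -0.55. These are descriptions over 6 points that share media, slides and the saturation of the Asns probe in 3B3l cells and on 1 J1-2i array.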

How the data were processed

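The values are signal intensity from Agilent Feature Extraction 11.5.1.1, per the file headers background-subtracted and detrended within each array by the authors' scanner software (grid on mm9). Columns of quality flags came with them. A deposited series table held the authors' normalized log2 values and served as an alternative. It lacks the brighter Phgdh probe, and its columns best matched the named array in 3 of 16 cases but an array of the same group in 16 of 16. Probes were named through RefSeq accessions (28026 of 55681 non-control probes). Outlier spots were dropped, saturated spots kept and spots of a probe averaged; log2 signal was scaled to each array's 75th percentile (1019 to 1797 units). Probes well above background (a share of at least 0.5 of their spots flagged so) on every array of at least 1 group were tested (27126). One limma 3.58.1 model (R 4.3.3) of 6 group means with 10 residual degrees of freedom gave all contrasts, with Benjamini-Hochberg adjustment over all tested probes, and was tested on simulated data. The number of arrays limits the precision. Where a gene was not well above background, or was saturated, on a whole group, "at least" folds use the lowest signal among probes well above background, or the saturated value. All 10 genes are named; from each supporting list the 2 genes called with the largest change in each response are named, and further genes were named after their values were seen, where the counts were small. Members and lists were chosen with earlier results of these data known. Alternatives were scaling by the array median, quantile normalization, normexp background correction, other filters, no 2-fold limit, the authors' table, slide or replicate number as a block, single slides, and leaving out each array.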

Additional observations from a re-analysis of the deposited data

Results flagged for a closer look

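For 5 genes the response to 2i differed between lines by the test of the difference itself. Chac1 responded less in TKO than in J1 (-3.08) and less in 3B3l than in J1 (-3.75). Ddit3 responded more in TKO than in J1 (1.87) and less in 3B3l than in TKO (-1.16). Trib3 (-1.91) and Atf4 (-1.02) responded less in 3B3l than in J1, and Atf3 responded less in 3B3l than in TKO (-1.18). All values are on the log2 scale. The differences from J1 include the J1-serum arrays with their higher fibroblast and endoderm marker sums, whose part was not tested. The differences of 3B3l from TKO use those arrays only for the shared estimate of the spread. Marker sums were also higher in serum than in 2i within TKO and 3B3l, and their part was not tested. In the 4 J1-serum arrays, the only group large enough for a test of single arrays, no array of the 9 genes was an outlier by Dixon's limit. Sesn2 read 2.31, 5.09, 4.89 and 2.54 there, a split between pairs of arrays that a test of single arrays cannot flag.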

How the results depend on the processing

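No call of the 9 genes reversed under any alternative. Without the 2-fold limit the calls became 7 for the J1 response, 6 for TKO, 1 for 3B3l, 6 for 3B3l against J1 responses, 4 for 3B3l against TKO responses, 4 for TKO against J1 in 2i and 5 for 3B3l against J1 in 2i. They were 3 for TKO against J1 responses, where 4213 of 13874 genes passed. In serum they were 3 for TKO against J1 (6362 of 13883 genes) and 7 for 3B3l against J1 (7303 of 13885 genes). Asns counts in both tests of the 3B3l response against another, although its 3B3l change could not be measured. The 2 calls of 3B3l against TKO responses became 1 with array median scaling, normexp, no filter on dim probes, slide as a block and the replicate number as a block. The 5 calls of 3B3l against J1 in serum became 2 with quantile normalization and in the authors' table. Leaving out each array gave 3 to 3 calls for the J1 response, 1 to 2 for TKO, 0 to 0 for 3B3l, 2 to 3 for TKO against J1 responses, 2 to 5 for 3B3l against J1 (5 without 3B3l-2i replicate 2), 0 to 3 for 3B3l against TKO (0 without TKO-2i replicate 1, 3B3l-serum replicate 2 or 3B3l-2i replicate 1), 3 to 3 and 1 to 3 for TKO against J1 in serum and in 2i (1 without TKO-2i replicate 2), and 4 to 5 and 2 to 3 for 3B3l. The cause was not tested.

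Replicate numbers did not pair the samples: arrays with the same number had deviations correlated by -0.27 to 0.29 (median -0.03). With the replicate number as a block, 88 of 90 gene results kept their side of the limits; the Atf4 difference of 3B3l from J1 was -0.996 (adjusted p = 0.0249, under 2-fold) and the Ddit3 difference of 3B3l from TKO -1.15 (adjusted p = 0.109). Scaling by the array median moved the median of all probes by up to 0.13 on the log2 scale, in the J1 response from 0.04 to 0.17. Small groups of 2 arrays and saturation of Asns and Atf4 limit what could be measured.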
